A study of Mus musculus with 18 samples.

Results

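Triglyceride is built in the liver from glycerol 3-phosphate by a short chain of enzymes and is broken down again by lipases. The 10 genes described here, of 15572 genes in the RNA-seq count table, are enzymes of that route, taken by name from the table: *Gpam*, *Agpat2*, *Agpat3*, *Lpin1*, *Lpin2*, *Lpin3*, *Dgat1*, *Dgat2*, *Mogat1* and *Pnpla2*. They were listed by function, with earlier results of these data known, and all 10 passed the filter on low counts. Beside their expression, the summits of ATAC-seq and H3K9me2 ChIP-seq peaks near their RefSeq transcript starts are given for each liver.

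In the glycerol phosphate pathway, GPAM on mitochondria adds the first acyl chain to glycerol 3-phosphate, AGPAT enzymes add the next to make phosphatidic acid, and lipins remove the phosphate to give diacylglycerol, which DGAT1 and DGAT2 acylate to triglyceride. Diacylglycerol is also made from monoacylglycerol by MOGAT1, and it is where the branches to triglyceride and to phospholipid part. *Pnpla2* encodes adipose triglyceride lipase (ATGL), which starts lipolysis of stored triglyceride.

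The study asked how JMJD1C, a demethylase of histone H3 lysine 9, acts on feeding-dependent gene expression in mouse liver. Its 18 genome-wide samples came from C57BL/6J mice, of which the WT were littermates of JMJD1C-LKO mice, in which a floxed *Jmjd1c* allele is deleted by Cre driven by the albumin promoter, so that liver cells other than hepatocytes should keep the gene. Mice were 12 weeks old where not specified otherwise, and had been fasted overnight (WT fasted) or fasted and then given a high carbohydrate diet (refed, of either genotype), for 6 h by the labels and 8 to 16 h by the methods. The treatment label of every sample mentions refeeding, and F and R in the sample titles were read as fasted and refed from the description of the study. RNA-seq compared 2 WT refed with 2 JMJD1C-LKO refed libraries, each of pooled RNA. ATAC-seq used single livers, 2 from each of the 3 combinations of genotype and feeding, and H3K9me2 ChIP-seq, with input DNA as control, 2 fasted and 2 refed WT livers. No JMJD1C-LKO liver was fasted, and no H3K9me2 sample was made from JMJD1C-LKO liver.

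The RNA-seq libraries held 51265128 to 54400509 counts. *Jmjd1c* itself was at 22.0 and 22.8 CPM (counts scaled by TMM-normalized library size) in the WT libraries and at 20.04 and 20.5 CPM in those labelled JMJD1C-LKO, a log2 fold change of -0.14 ± 0.084 (SE, 95% interval -0.33 to 0.05) that did not pass the test (adjusted p = 0.23, edgeR quasi-likelihood test). Counts over the whole gene include reads outside the deleted part. Of its transcripts, NM_001242396 was at 5.41 and 9.18 CPM in WT against 3.46 and 4.86 CPM, and NM_207221 at 16.6 and 13.6 CPM against 16.6 and 15.7 CPM. The deletion was therefore not seen in these counts, and each direction given below is that of the libraries labelled JMJD1C-LKO. By RT-qPCR and immunoblotting, the study reported less *Jmjd1c* mRNA and no detectable protein in livers of JMJD1C-LKO mice. Whether these mice gave the RNA-seq pools is not stated. Summed hepatocyte markers were at 108000 to 121000 CPM in all 4 libraries, and 2 of 10 were higher in those labelled JMJD1C-LKO. Immune cell markers summed to 142 and 146 CPM in WT and to 303 and 449 CPM in the libraries labelled JMJD1C-LKO, where 7 of 8 were higher, and endothelial markers to 82.8 and 84.9 CPM against 113 and 148 CPM, where 4 of 5 were higher. Stellate cell markers summed to 172 and 174 against 187 and 218 CPM, where 1 of 6 was higher. Adipocyte markers summed to 16.7 and 16.1 against 27.3 and 32.3 CPM, where both of the 2 tested were higher, with *Lep*, *Retn*, *Plin1* and *Cidea* not listed in the table. Markers of pancreas and intestine summed to 169 to 181 CPM in WT and to 153 to 165 CPM in the others, where 1 of the 3 tested was higher. The part that other cell types had in the results below was not tested. In whole liver a change in the number of cells of a type and a change in RNA per cell cannot be told apart.

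In the refed livers, 5 of the 10 enzymes were higher in the libraries labelled JMJD1C-LKO and 0 were lower, at an adjusted p below 0.05. *Lpin1* and *Lpin2* were close to 3 times as high, *Pnpla2* was at 2 times the WT level, and *Dgat1* and *Agpat3* rose by smaller amounts. *Gpam*, *Agpat2*, *Lpin3*, *Dgat2* and *Mogat1* did not pass the test. Without WT library 1 or WT library 2 the count was 3, as *Agpat3* and *Dgat1* no longer passed. Over all 14151 genes tested with every library kept, 14.6% were higher and 13.4% lower. The median log2 fold change of the 10 enzymes was 0.36, against 0.01 over all genes tested. The WT and JMJD1C-LKO libraries did not overlap for 7 of the 10 enzymes, and for 67.5% of all genes tested. As the enzymes were chosen with earlier results of these data known, these comparisons are not a test of the list. The plot of CPM by library shows the levels of all 10.

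**Figure D1:**
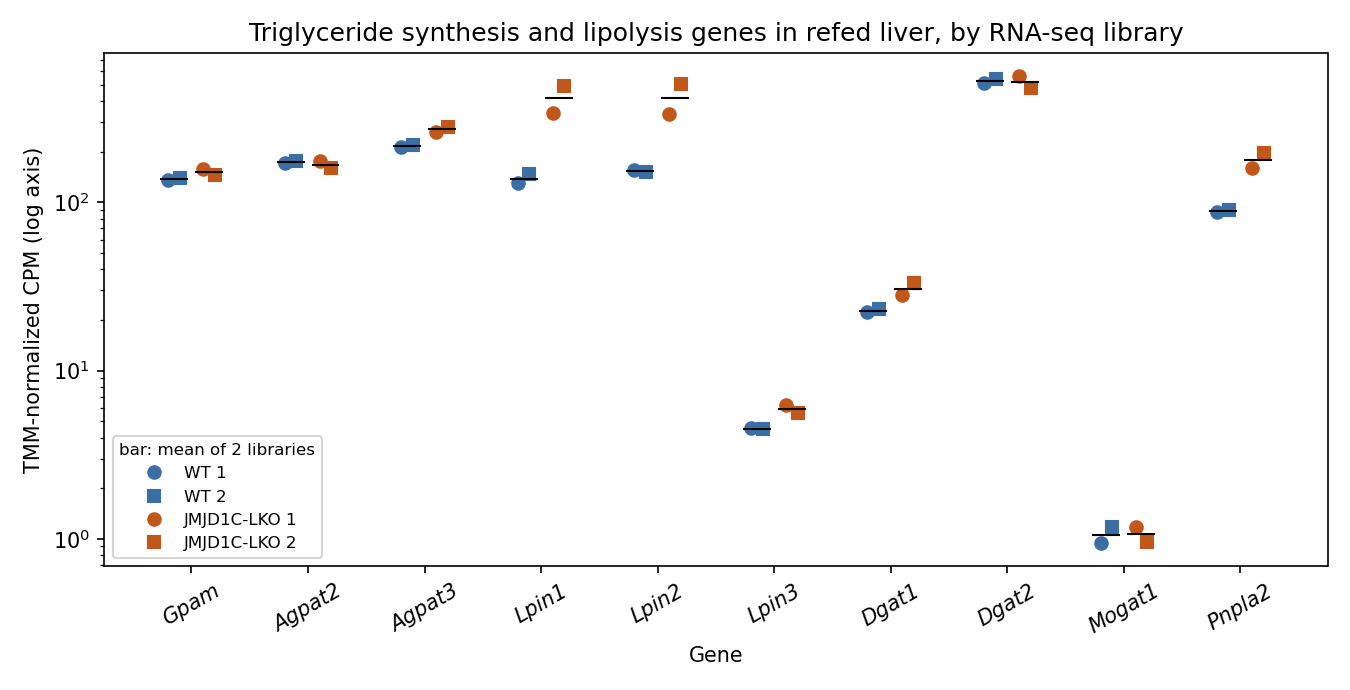
TMM-normalized CPM (log axis) of each enzyme gene in the 2 WT and 2 JMJD1C-LKO refed RNA-seq libraries, points being libraries and bars the means of 2. *Lpin1*, *Lpin2* and *Pnpla2* show the widest gaps between the groups, and *Dgat2* is the highest of the 10 in WT libraries (515 and 541 CPM).

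Among the acyltransferases, *Gpam* (chromosome 19, 55067636 to 55127238, minus strand; positions are those of the RefSeq annotation of GRCm38.p6 throughout) was at 135 and 140 CPM in WT and at 158 and 145 CPM in the libraries labelled JMJD1C-LKO. The groups did not overlap, but the log2 fold change of 0.14 ± 0.081 (95% interval -0.04 to 0.32) did not pass the test (adjusted p = 0.23). *Agpat2* (chromosome 2, 26593057 to 26604417, minus strand), whose loss causes congenital lipodystrophy, was at 171 and 176 CPM in WT and at 176 and 159 CPM in the others. Its groups overlapped, with a log2 fold change of -0.05 ± 0.083 (95% interval -0.23 to 0.14, adjusted p = 0.71). *Agpat3* (chromosome 10, 78271563 to 78351700, minus strand), which also acylates lysophosphatidic acid, was at 214 and 221 CPM in WT and at 263 and 280 CPM in the libraries labelled JMJD1C-LKO. Both of the latter were above both WT libraries, and the rise of 0.32 ± 0.080 on the log2 scale (1.25-fold) passed the test (adjusted p = 0.015). Without WT library 1 or WT library 2 the adjusted p was 0.17 or 0.13, and without JMJD1C-LKO library 1 or 2 it was 0.0052 or 0.032.

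Among the lipins, 2 of 3 rose. *Lpin1* (chromosome 12, 16535669 to 16610966, minus strand) encodes a phosphatidate phosphatase that also acts in the nucleus as a coactivator of fatty acid oxidation genes. It was at 130 and 147 CPM in WT and at 341 and 489 CPM in the libraries labelled JMJD1C-LKO, the lower of which was over 2 times the higher WT library. The log2 fold change was 1.58 ± 0.15 (2.99-fold, adjusted p = 0.00017). *Lpin2* (chromosome 17, 71183532 to 71249818, plus strand), a main lipin of liver, was at 156 and 151 CPM in WT and at 338 and 503 CPM in the others. Again no library of either group reached into the range of the other, with a log2 fold change of 1.45 ± 0.16 (2.74-fold, adjusted p = 0.00029). Between the libraries labelled JMJD1C-LKO, library 1 was the higher for *Gpam*, *Agpat2*, *Lpin3*, *Dgat2*, *Mogat1* and the summed hepatocyte and pancreas and intestine markers. JMJD1C-LKO library 2 was the higher for *Lpin1*, *Lpin2*, *Agpat3*, *Dgat1*, *Pnpla2* and the summed immune, endothelial, stellate cell and adipocyte markers. Without it, the log2 fold change of *Lpin1* was 1.30 and that of *Lpin2* 1.14, and both still passed the test. *Lpin3* (chromosome 2, 160880670 to 160906000, plus strand), the least abundant lipin of these livers, was at 4.55 and 4.47 CPM in WT and at 6.23 and 5.63 CPM in the others. Its groups did not overlap, but the log2 fold change of 0.39 ± 0.15 (95% interval 0.05 to 0.74) did not pass after adjustment (adjusted p = 0.084).

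The promoters of *Lpin2* are shown because the windows of this gene held an E-box and a forkhead motif. The RefSeq promoter table of GRCm38.p6 had windows for 8 of the 10 genes, and the 250 bases before each start were searched on both strands. The *Lpin1* window was that of its outer start, used by NM_001355598, which held 9.44% of the *Lpin1* counts in WT. The first sequence lies before the most upstream *Lpin2* start (chr17:71183282-71183531, plus strand) and carries in capitals GGGCGG, the Sp1 core, at position -24 and CACGTG, the E-box to which USF-1 binds, at position -9. The second lies before the most downstream *Lpin2* start, inside the gene (chr17:71204404-71204653, plus strand), and carries in capitals GTAAACA, the core motif of forkhead box O factors, at position -138 and ATTGG, the reverse complement of the NF-Y core CCAAT, at positions -233, -165 and -57. Positions count back from the transcript start and give the left end of a match.
Lpin2 upstream start: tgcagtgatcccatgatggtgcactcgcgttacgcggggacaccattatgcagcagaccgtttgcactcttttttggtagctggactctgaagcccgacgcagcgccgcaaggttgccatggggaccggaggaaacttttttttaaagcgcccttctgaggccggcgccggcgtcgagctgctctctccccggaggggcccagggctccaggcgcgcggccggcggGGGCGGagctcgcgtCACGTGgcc
Lpin2 downstream start: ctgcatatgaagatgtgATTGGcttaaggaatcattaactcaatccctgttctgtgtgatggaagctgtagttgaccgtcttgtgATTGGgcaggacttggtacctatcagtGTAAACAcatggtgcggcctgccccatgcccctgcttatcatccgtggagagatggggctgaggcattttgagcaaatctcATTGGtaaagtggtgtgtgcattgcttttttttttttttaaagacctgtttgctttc
Of all 32851 windows of this length in the table, 6.02% held CACGTG, 3.17% GTAAACA, 33.8% CCAAT and 32.7% GGGCGG. The most upstream *Lpin2* start, with the E-box, is that of NM_001357791, which was not among the counted *Lpin2* transcripts. The middle start, that of NM_022882 with 73.4% of the *Lpin2* counts in WT, held GGGCGG alone, at position -79. A match of letters is not evidence of a bound factor.

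The step from diacylglycerol to triglyceride is shared by both DGAT enzymes. *Dgat1* (chromosome 15, 76502012 to 76511994, minus strand) encodes the acyltransferase of the endoplasmic reticulum that also re-esterifies fatty acids taken up or released by lipolysis. It was at 22.2 and 23.2 CPM in WT and at 28.3 and 33.0 CPM in the libraries labelled JMJD1C-LKO, without overlap. The log2 fold change was 0.43 ± 0.096 (1.35-fold, adjusted p = 0.0097), and without WT library 1 or WT library 2 the adjusted p was 0.11 or 0.081, while without JMJD1C-LKO library 1 or 2 it was 0.001 or 0.032. *Dgat2* (chromosome 7, 99153663 to 99182713, minus strand), which uses mainly newly made fatty acids, was at 515 and 541 CPM in WT and at 562 and 479 CPM in the others. The JMJD1C-LKO libraries lay on either side of the WT ones, with a log2 fold change of -0.02 ± 0.095 (95% interval -0.24 to 0.19, adjusted p = 0.89). *Mogat1* (chromosome 1, 78511060 to 78538173, plus strand) was the lowest of the 10 genes, at 0.945 and 1.17 CPM in WT and at 1.17 and 0.962 CPM in the others. These values came from few reads and overlapped, and the 95% interval of the log2 fold change, -0.66 to 0.68, spans changes of over 1.5-fold in either direction (adjusted p = 0.98).

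On the side of lipolysis, *Pnpla2* (chromosome 7, 141455188 to 141460743, plus strand) was at 88.0 and 89.5 CPM in WT and at 159 and 197 CPM in the libraries labelled JMJD1C-LKO. The WT libraries were close to each other and both of the others lay far above them, with a log2 fold change of 1.003 ± 0.10 (2-fold, adjusted p = 0.00025). *Pnpla2* is also abundant in adipocytes, whose markers summed to 16.7 and 16.1 CPM in WT and 27.3 and 32.3 CPM in the others. Both adipocyte markers that could be tested were higher, of which 1 is *Lipe*, while *Adipoq* did not exceed 0.11 CPM in any library. Their part in the rise of *Pnpla2* was not tested. The 250 bases before its start (chr7:141454938-141455187, plus strand) are shown because *Pnpla2* rose together with *Lpin2*, and the capitals mark GGGCGG at position -109 and its reverse complement CCGCCC at position -26.
Pnpla2: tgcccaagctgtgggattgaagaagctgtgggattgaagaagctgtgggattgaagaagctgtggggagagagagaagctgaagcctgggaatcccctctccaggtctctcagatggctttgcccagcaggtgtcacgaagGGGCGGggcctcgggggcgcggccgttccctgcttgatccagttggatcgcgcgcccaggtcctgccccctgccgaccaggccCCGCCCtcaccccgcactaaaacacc
The other motifs searched gave no match in this window. Besides those named above, they were TCACNCCAC (the sterol response element core) and the nuclear receptor elements DR4 and DR1. Across all windows TCACNCCAC was found in 1.05%, DR4 in 0.0152% and DR1 in 0.0335%, and in none of the 12 windows searched for the enzymes.

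Several of these genes are counted as more than 1 RefSeq transcript, with reads shared between isoforms as estimated by the authors. In the same test on single transcripts, all 4 transcripts of *Lpin1* were higher in the libraries labelled JMJD1C-LKO (2.68-fold to 3.42-fold, adjusted p = 0.032 to 0.046). The most abundant of them, NM_172950, was at 62.0 and 61.3 CPM in WT and at 139 and 192 CPM in the others, and held 44.5% of the *Lpin1* counts in WT and 39.7% in JMJD1C-LKO. Next came NM_015763, which went from 38.3 and 47.5 CPM to 119 and 174 CPM and from 31.0% to 35.3% of the counts of *Lpin1*. Both counted transcripts of *Lpin2* were higher as well. NM_022882, which held 73.4% of the *Lpin2* counts in WT and 72.8% in JMJD1C-LKO, went from 113 and 112 CPM to 248 and 365 CPM (adjusted p = 0.033), and NM_001164885, which starts downstream, from 42.4 and 39.3 CPM to 90.0 and 138 CPM (adjusted p = 0.037). The main *Pnpla2* transcript, NM_001163689, went from 72.5 and 76.3 CPM to 136 and 159 CPM (adjusted p = 0.029), and the other two did not pass (adjusted p = 0.079 for each). At this level *Agpat3* (adjusted p = 0.076) and *Dgat1* (adjusted p = 0.088), which have a single transcript each, did not pass either. In the plot of transcripts of *Lpin1*, *Lpin2* and *Pnpla2*, every isoform was higher in each library labelled JMJD1C-LKO than in either WT library.

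**Figure D2:**
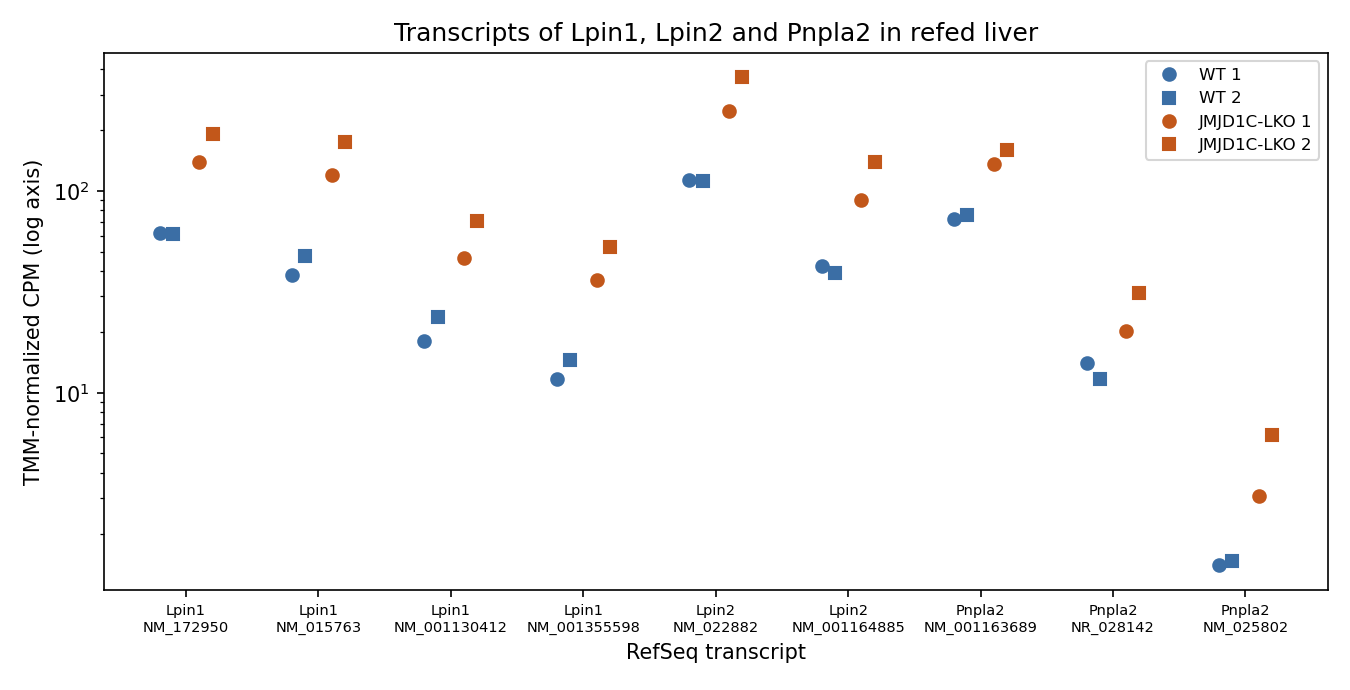
TMM-normalized CPM (log axis) of each counted RefSeq transcript of *Lpin1*, *Lpin2* and *Pnpla2* in the 2 WT and 2 JMJD1C-LKO refed libraries. Both JMJD1C-LKO points lie above both WT points for every transcript shown, while NM_025802 of *Pnpla2* makes up 1.61% of the counts of its gene in WT.

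To compare genes with each other, counts were divided by transcript length and scaled to the same total in each library (TPM). In WT refed liver *Dgat2* had the highest level, 404 ± 19.9 TPM (SD, n = 2), followed by *Agpat2* at 190 ± 6.73 TPM and *Agpat3* at 109 ± 4.16 TPM. *Pnpla2* was at 57.8 ± 1.65 TPM, *Lpin2* at 46.6 ± 0.20 TPM, *Lpin1* at 43.0 ± 4.37 TPM and *Gpam* at 39.5 ± 1.49 TPM. The lower levels were those of *Dgat1* at 20.2 ± 0.949 TPM, *Lpin3* at 2.27 TPM in both libraries and *Mogat1* at 1.51 ± 0.25 TPM. Of the neighbours in this order only *Lpin1* and *Gpam* overlapped between libraries, *Gpam* in WT library 2 (40.6 TPM) being above *Lpin1* in WT library 1 (39.9 TPM). *Dgat2* held 95.2% of the summed TPM of the 2 DGAT genes in WT. In the libraries labelled JMJD1C-LKO *Lpin1* and *Lpin2*, at 127 ± 36.1 and 126 ± 38.9 TPM, stood level with *Pnpla2* at 114 ± 20.6 TPM and *Agpat3* at 134 ± 10.4 TPM, and these 4 ranges overlapped. The 3 lipins together rose from 88.8 and 94.7 TPM to 202 and 308 TPM, whereas *Gpam*, *Agpat2* and *Agpat3* together were at 329 and 347 TPM in WT and at 355 and 358 TPM in the others.

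The other genes of glycerolipid metabolism did not lean to one side. Of 74 tested, 16 were higher and 12 lower in the libraries labelled JMJD1C-LKO, with a median log2 fold change of -0.01. These counts were 7 and 6 without WT library 1, 5 and 4 without WT library 2, and 10 and 12 without JMJD1C-LKO library 2. The lists were drawn up by function, with earlier results of these data known. Genes named from them are those with the smallest p past the threshold, at most 5 in each. Counts with every library kept, here and below, are to be read beside the 14.6% higher and 13.4% lower over all genes tested. Counts with a library left out are not, since the number of calls over all genes changed too on these omissions. Of 10 other acyltransferases 3 were higher and 0 lower (median 0.29), and 1 was higher without WT library 1 or WT library 2. *Gpat4*, the glycerol 3-phosphate acyltransferase of the endoplasmic reticulum, went from 95.4 and 98.2 CPM to 179 and 200 CPM (log2 fold change 0.97 ± 0.085, adjusted p = 0.00013), beside 0.14 for *Gpam*, the mitochondrial enzyme of the same step, and the difference between the 2 genes was not tested. *Lclat1* (0.32 ± 0.094, adjusted p = 0.029) and *Lpcat3* (0.25 ± 0.081, adjusted p = 0.044), which remodel the acyl chains of phospholipids, were higher too. With DESeq2, or with no filter on low counts, 2 of the other acyltransferases were higher rather than 3.

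Of 17 other lipases and regulators of lipolysis 2 were higher and 7 lower (median -0.16), and 4 were lower without WT library 1 and 2 without WT library 2. *Lipe*, hormone-sensitive lipase, which acts after ATGL and is itself among the adipocyte markers, went from 9.32 and 9.59 CPM to 17.6 and 19.2 CPM (log2 fold change 0.96 ± 0.10, adjusted p = 0.00029), and the carboxylesterase gene *Ces1g* from 82.0 and 95.7 CPM to 168 and 209 CPM (1.09 ± 0.12, adjusted p = 0.00031). Lower was *Ces1f*, of the same carboxylesterase cluster (-0.76 ± 0.11, adjusted p = 0.0012). So was *G0s2*, an inhibitor of ATGL, which went from 163 and 135 CPM to 86.3 and 103 CPM (-0.66 ± 0.11, adjusted p = 0.0029). *Pnpla3*, a relative of *Pnpla2* that is induced by feeding, was at 1.95 and 2.78 CPM in WT and at 0.364 and 0.853 CPM in the others (-1.94 ± 0.38, adjusted p = 0.0054). *Abhd5*, which encodes the coactivator of ATGL and was picked after its values were seen, was lower as well (43.2 and 42.1 CPM against 33.6 and 25.2 CPM, -0.54 ± 0.12, adjusted p = 0.011). *Pnpla2* thus rose while *G0s2* and *Abhd5* fell in the same libraries, and 8 genes of this list, *Hilpda* among them, did not pass the test. Reads of the *Ces1* genes may be split between near-identical copies, so that their values are uncertain.

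Of 12 lipid droplet proteins 3 were higher and 1 lower (median -0.01). Without WT library 1 these counts were 2 and 0, 1 and 0 without WT library 2, and 4 and 2 without JMJD1C-LKO library 1. *Cidec*, which promotes fusion of droplets, went from 7.33 and 6.50 CPM to 15.6 and 23.7 CPM (log2 fold change 1.51 ± 0.18, adjusted p = 0.00052), *Plin4* rose by 1.07 ± 0.20 (adjusted p = 0.0041) and *Plin2*, the main perilipin of hepatocytes, by 0.31 ± 0.092 (adjusted p = 0.031). *Hsd17b11*, a dehydrogenase found on droplets, fell by 0.25 ± 0.080 (adjusted p = 0.041). *Cidec* and *Plin4* are also genes of adipocytes, whose markers are given above. For the supply of glycerol 3-phosphate, 1 of 7 genes was higher and 2 were lower (1 and 1 without WT library 1 or JMJD1C-LKO library 1, 0 and 1 without WT library 2). These were the glycerol channel *Aqp9* (0.49 ± 0.078, adjusted p = 0.0019), the mitochondrial dehydrogenase *Gpd2* (-0.62 ± 0.084, adjusted p = 0.00095) and the glycerol 3-phosphate phosphatase *Pgp* (-0.41 ± 0.11, adjusted p = 0.024).

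For acyl-CoA supply, 2 of 9 genes were higher, the transporter *Slc27a5* (0.47 ± 0.080, adjusted p = 0.0028) and the fatty acid translocase *Cd36* (0.52 ± 0.11, adjusted p = 0.0071), and the fatty acid binding protein *Fabp1* was lower (-0.40 ± 0.089, adjusted p = 0.01). None of these 3 calls was made without WT library 1 or without WT library 2, where 0 genes of the list passed in either direction, and without JMJD1C-LKO library 1 there were 3 higher and 2 lower. Of 17 genes of the phospholipid branch 5 were higher and 1 lower, and 1 was higher without WT library 1, without WT library 2 or without JMJD1C-LKO library 2, while 2 were lower without JMJD1C-LKO library 1. *Etnk2*, an ethanolamine kinase, went from 206 and 195 CPM to 424 and 465 CPM (1.15 ± 0.085, adjusted p = 5.4e-05). Also higher were *Cds1* (1.48 ± 0.39, adjusted p = 0.02), which draws on phosphatidic acid, the substrate of the lipins, and is at 0.309 to 1.18 CPM, *Chkb* (0.35 ± 0.091, adjusted p = 0.02) and *Ptdss2* (0.41 ± 0.12, adjusted p = 0.027). *Cept1*, which uses diacylglycerol for phospholipid, was lower (-0.47 ± 0.076, adjusted p = 0.0021). Neither *Ctdnep1* nor *Cnep1r1*, the phosphatase pair that dephosphorylates lipins, passed the test. *Dgat2l6*, *Pnpla5*, *Plin1*, *Cidea*, *Aqp3* and *Acsl6* of these lists were not listed in the count table. The plot of fold change by list sets these groups beside the enzymes.

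**Figure D3:**
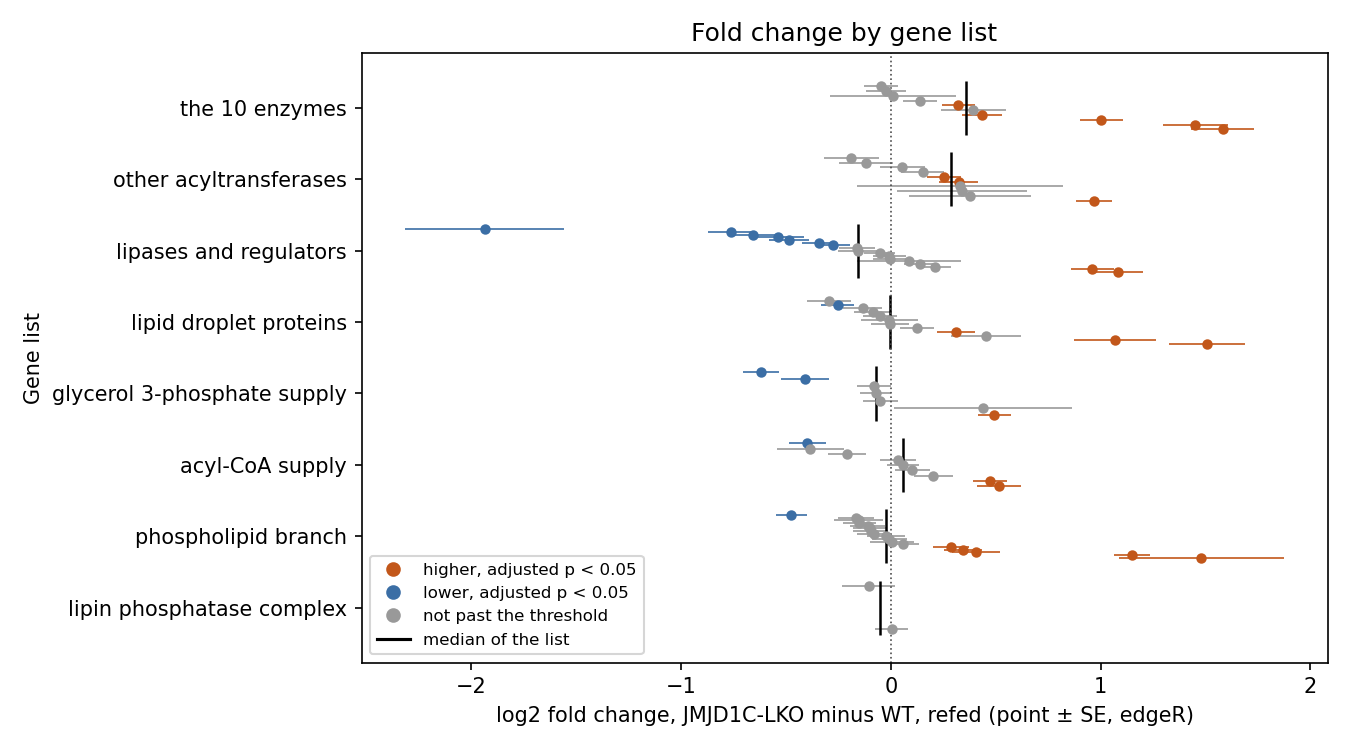
Log2 fold change (JMJD1C-LKO minus WT, refed; point ± SE of edgeR) of every tested gene of each list, coloured by whether the adjusted p was below 0.05, with the median of each list as a black line. Over all genes tested, 14.6% were called higher and 13.4% lower. The enzymes have no gene called lower and the lipases and regulators have 7 (4 without WT library 1 and 2 without WT library 2).

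Dimethylation of H3K9 is reported at silenced genes, and it was mapped in fasted and refed WT liver. Summits, the positions of highest enrichment in each peak, were counted as lying at a gene when within 1000 bp of any RefSeq start. In WT fasted liver 1, 8 of the 10 enzyme genes had a summit, those without being *Lpin3* and *Mogat1*, where 29.3% of the 26180 annotated genes had one. In fasted liver 2 there were 9, *Lpin3* being added, against 42.7% of all genes. WT refed liver 1 had a summit at 0 of the 10, against 0.233% of all genes, and refed liver 2 at 8, the same as in fasted liver 1, against 35.1%. The refed livers therefore differed from each other more than the refed liver 2 did from the fasted ones. Refed liver 1 had 1297 summits in all and the other 3 between 7690 and 13456, so that the count of genes with a summit in both livers, 8 for fasted (29.1% of all genes) and 0 for refed (0.042%), rested on refed liver 1. With 2 livers a group, an exact permutation test cannot give a p below 0.333.

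The share of genes with an H3K9me2 summit was higher among more expressed genes, so a summit in these lists does not by itself mark a silent gene. Levels were means of the WT refed RNA-seq libraries, as no fasted liver had RNA-seq. Among genes at 20 CPM or more, which include 8 of the 10 enzymes, 81.9% had a summit in fasted liver 1, 95.5% in fasted liver 2 and 90.1% in refed liver 2. Among genes under 5 CPM, which include *Lpin3* and *Mogat1*, the shares were 15.3%, 40% and 22.5%. In refed liver 1 they were 0.153% at 20 CPM or more and 0.0811% under 5 CPM. These bounds were chosen after the data were seen. Against genes of like level, then, having a summit at 8 of 8 of the more abundant enzymes in the fasted livers and refed liver 2 was close to the share of all genes.

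Most of the H3K9me2 summits lay inside the gene, downstream of the start, as over all genes, where the median distance was 253, 222 and 258 bp in fasted livers 1 and 2 and refed liver 2. At *Dgat2* they lay at 301, 312 and 452 bp in fasted livers 1 and 2 and refed liver 2, at *Pnpla2* at 351, 282 and 278 bp, and at *Agpat2* at 520, 448 and 494 bp. The *Lpin1* summit lay 341, 255 and 312 bp downstream of the inner of its 2 starts (position 16589770), with none within 1000 bp of the outer start. *Gpam* had summits at both of its starts in the fasted livers and in refed liver 2 only at the outer start (312 bp). At *Agpat3* the summits lay only outside the gene, 356, 371 and 401 bp upstream. *Lpin2* held summits around its upstream starts and 527, 270 and 335 bp past its downstream start, whose upstream sequence is printed above. The plot of summit positions shows how these places recurred from liver to liver.

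**Figure D4:**
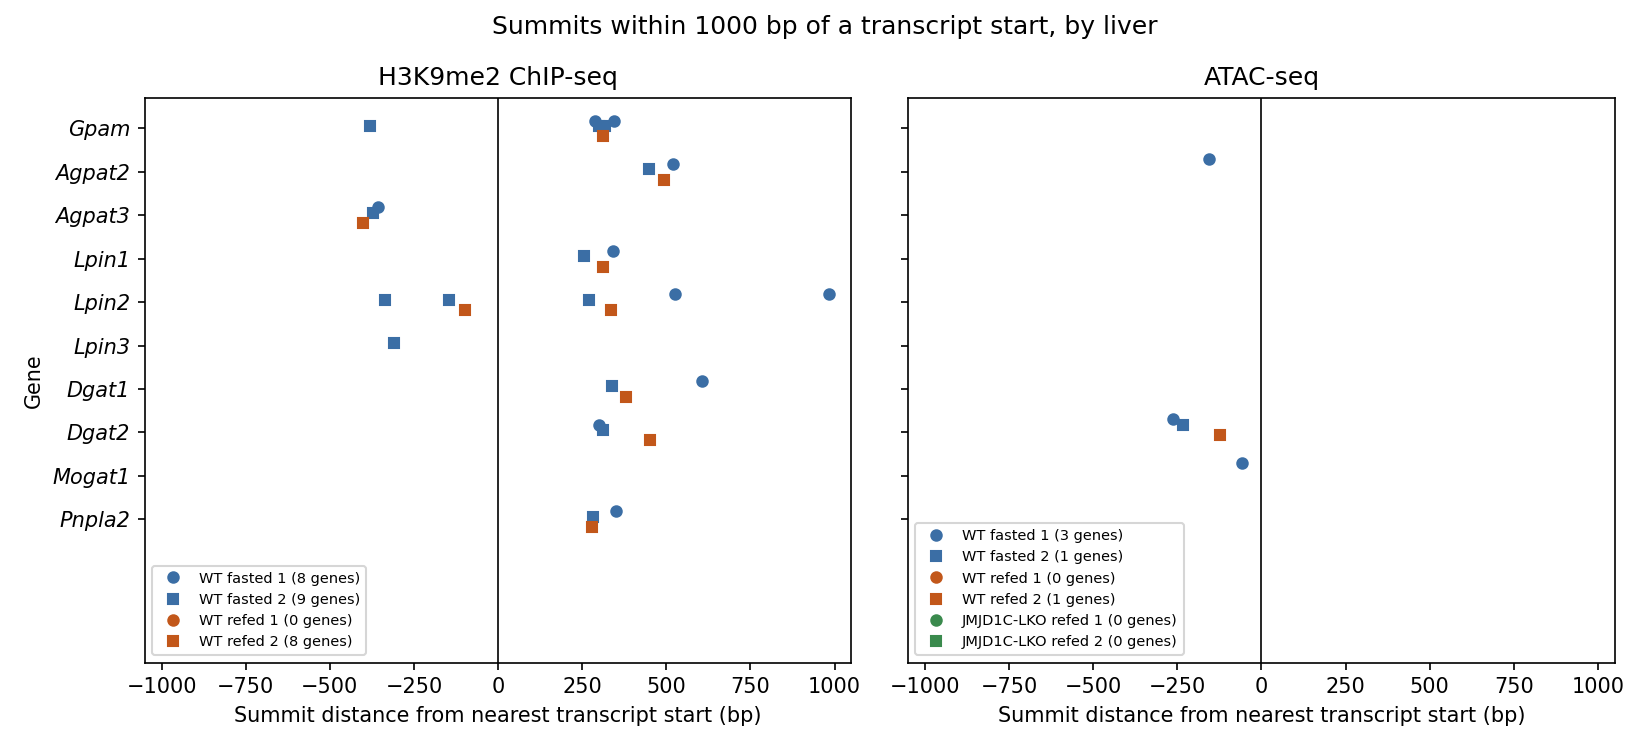
Distance in bp of every H3K9me2 (left) and ATAC-seq (right) summit within 1000 bp of the nearest transcript start, by gene, with negative values upstream, colours for the state and circles and squares for livers 1 and 2. Most H3K9me2 summits lie downstream of the start and all 5 ATAC-seq summits upstream, and WT refed liver 1 has no H3K9me2 point.

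Summit scores (-log10 of the q-value) depend on depth, which is unknown for these lists, so each gene was ranked within its liver among the genes with a summit. *Lpin1* ranked high throughout, at the 86.0 and 99.2 percentile in the fasted livers and at 97.5 in refed liver 2, as did *Dgat2* at 89.3, 86.8 and 86.4 and *Agpat2* at 77.6, 93.1 and 96.4. *Gpam* ranked at 47.5 and 69.3 when fasted and at 99.5 when refed. The reverse order was found at *Agpat3* (90.9 and 53.5, then 13.2), *Lpin2* (84.6 and 85.1, then 50.8) and *Pnpla2* (78.4 and 82.6, then 48.1). For a gene with several starts the rank was that of the highest score at any start. At *Gpam* this was the inner start in fasted liver 1 and the outer start in fasted liver 2 and refed liver 2. At *Lpin2* it was the downstream start in fasted liver 1 and the middle start in fasted liver 2 and refed liver 2. The ranks of *Gpam* and *Lpin2* thus do not follow a single site. *Dgat1* was at 23.8, 60.6 and 52.0, and *Lpin3* at 7.77 in the only liver where it had a summit. Since the refed state is represented here by a single liver, whether these ranks differ by state was not tested. *Lpin1* and *Lpin2*, which rose by similar factors in RNA-seq, had different ranks in refed liver 2.

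**Figure D5:**
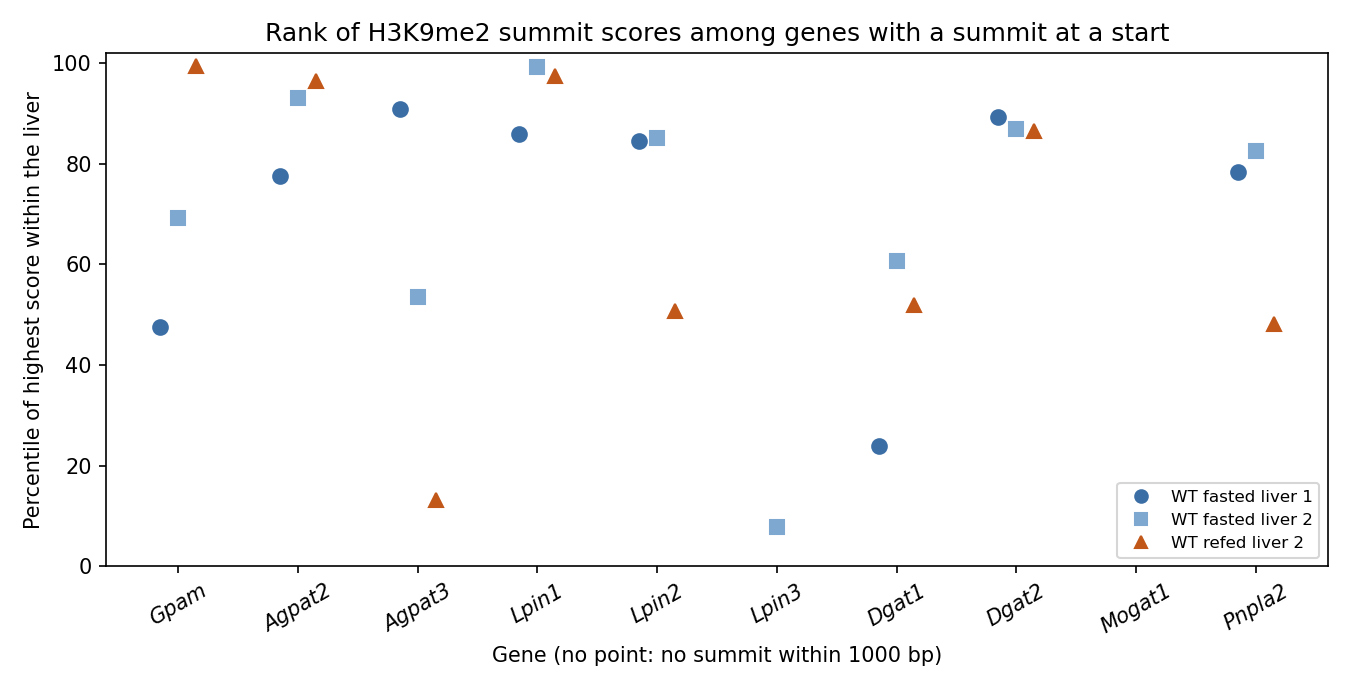
Percentile of the highest H3K9me2 summit score of each gene among the genes with a summit at a start in the same liver, for WT fasted livers 1 and 2 and WT refed liver 2. *Gpam* is highest and *Agpat3* lowest in the refed liver, and *Dgat2* holds nearly the same place in all 3.

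ATAC-seq, in which a transposase cuts accessible DNA, gave few summits at these genes. In WT fasted liver 1 there were summits at *Agpat2*, *Dgat2* and *Mogat1*, 3 of 10 against 12% of all genes, and in fasted liver 2 at *Dgat2* alone (5.49% of all genes). WT refed liver 1 had 0 of 10 (9.94%) and refed liver 2 had *Dgat2* (6.24%). The livers labelled JMJD1C-LKO had 0 of 10 each, against 4.06% and 0.886% of all genes, values near 0 in either case. Of the 8 enzymes at 20 CPM or more, 2 had a summit in WT fasted liver 1, against 24.3% of all genes at that level. In WT fasted liver 2 and WT refed liver 2 it was 1 of 8, against 11.6% and 13.8%. The other livers had 0 of 8. In both livers of a group, *Dgat2* in the fasted group was the single case, and there 4.36% of all genes had a summit in both livers. No enzyme had a summit in both livers of the refed WT group (4.78% of all genes) or of the JMJD1C-LKO group (0.397%). The lists held 5220 and 7632 summits in the fasted livers, 5027 and 3119 in the refed WT livers and 1450 and 825 in those labelled JMJD1C-LKO.

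*Dgat2* had a summit in 3 of the 6 livers. It lay 262 and 234 bp upstream of the start in the fasted livers, where it ranked 507 of 5220 and 517 of 7632 by score, and at -123 bp in refed liver 2, where it ranked 1260 of 3119. *Dgat2* is also the enzyme with the highest level in RNA-seq. The starts of the lipins, *Gpam*, *Agpat3*, *Dgat1* and *Pnpla2* had no ATAC-seq summit in any liver. Most of these genes were well expressed, but most genes at 20 CPM or more had no ATAC-seq summit either. The share with one ran from 24.3% in WT fasted liver 1 down to 1.74% in JMJD1C-LKO refed liver 2. The depth of the lists is unknown, so no start can be called closed from them. A single summit inside *Lpin2*, 23717 bp past its downstream start, was found in fasted liver 2.

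The summits at *Agpat2* and *Mogat1* were each found in fasted liver 1 alone, with ranks of 3702 and 1601 of 5220. They are shown in the 250 bases before each start, since both fell inside this window, with the 21 bases centred on the summit in capitals (*Mogat1*, chr1:78510810-78511059, plus strand, summit at -58 bp; *Agpat2*, chr2:26604418-26604667, minus strand, summit at -156 bp).
Mogat1: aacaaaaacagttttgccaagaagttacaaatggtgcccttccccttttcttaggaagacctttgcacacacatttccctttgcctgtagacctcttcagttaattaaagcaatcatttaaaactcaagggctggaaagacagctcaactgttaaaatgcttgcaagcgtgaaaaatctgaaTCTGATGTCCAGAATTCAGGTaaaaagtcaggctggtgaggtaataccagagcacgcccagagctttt
Agpat2: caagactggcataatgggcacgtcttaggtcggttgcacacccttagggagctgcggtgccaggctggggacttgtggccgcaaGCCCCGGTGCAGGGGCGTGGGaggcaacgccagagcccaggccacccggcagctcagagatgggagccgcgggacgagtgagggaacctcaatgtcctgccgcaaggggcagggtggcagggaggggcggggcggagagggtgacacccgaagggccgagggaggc
The *Mogat1* window had no match to any motif searched. That of *Agpat2* held GGGCGG at positions -42 and -37, which overlap by 1 base, nearer to the start than the summit. *Mogat1* was thus the enzyme with an ATAC-seq summit, no H3K9me2 summit at its start in any liver, and the lowest RNA level of the 10.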

How the data were processed

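RNA-seq values were estimated counts per RefSeq transcript (mm10), deposited by the authors unscaled, of which 65.7% to 66.0% have a fractional part. The counting method is not given in the sources used here. A second deposited table with the authors' own comparison was not used. Peaks were called by the authors with MACS2 2.1.1 in each sample at a q-value cutoff of 0.05, for ChIP-seq against input and with at least 2.5-fold enrichment. The deposited summit lists give the -log10 q-value at each summit but no read counts or widths, so their depth is unknown.

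Counts were summed per gene, rounded, filtered with filterByExpr and TMM-normalized, and 14151 genes were tested with the quasi-likelihood F test of edgeR 4.0.16 (R 4.3.3) with Benjamini-Hochberg adjustment. P-values measure the spread between pools of RNA. The script was checked on simulated counts. TPM used RefSeq lengths, for 24682 of 24994 transcripts. Summits were assigned within 1000 bp of the starts of 45755 RefSeq transcripts (GRCm38.p6). Tried as alternatives were DESeq2 1.42.0, its size factors, no filter, a replicate block, the most abundant transcript, leaving out each library, and other windows, score minimums and list lengths. The replicate numbers of the 2 RNA-seq groups were not treated as pairs in the main test. Across genes the replicate differences of the 2 groups had a correlation of 0, which cannot show whether the pools were prepared in pairs. Of each list, the genes past an adjusted p of 0.05 with the smallest p were named, at most 5. The enzymes and the lists were chosen with earlier results of these data known. Protein features were not analysed here.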

Additional observations from a re-analysis of the deposited data

How the results depend on the processing

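Of the 10 enzymes, *Lpin1*, *Lpin2* and *Pnpla2* passed the test in the same direction in all 9 alternatives run (log2 fold changes of 1.30 to 1.81, 1.14 to 1.70 and 0.84 to 1.14, with adjusted p up to 0.0058, 0.011 and 0.01). Leaving out 1 library at a time, 3 to 5 enzymes were higher and 0 lower, 3 being left without WT library 1 or 2, when *Agpat3* and *Dgat1* did not pass. The numbers of genes called were, on the same omissions, 5 to 18 higher and 4 to 15 lower among the 74 other glycerolipid genes, and 660 to 2590 higher and 408 to 2590 lower among all genes. Genes with no call changed sign on omission of a library, with log2 fold changes of -0.13 to 0.025 for *Agpat2* (positive without JMJD1C-LKO library 2), -0.148 to 0.089 for *Dgat2* (positive without WT library 2 or JMJD1C-LKO library 2) and -0.144 to 0.169 for *Mogat1* (negative without WT library 1 or JMJD1C-LKO library 1). The share of higher among all called genes went from 52.2% to 62.4% and 61.8% without WT library 1 and 2. With the replicate block 5 enzymes were higher and 0 lower, as without it, and it changed no call on an enzyme. No call on a transcript of an enzyme changed with DESeq2 size factors. Beyond the smaller number of libraries in each fit, the cause of these changes was not tested.

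Of the counts of summits, H3K9me2 in both fasted livers fell from 8 enzymes to 1 with a window of 1000 bp upstream to 100 bp downstream, since the summits lie farther downstream, and to 2 with the 1297 strongest summits of each liver. In refed liver it rose from 0 to 8 with a summit in either liver, leave-one-out counts being 0 to 8. ATAC-seq counts rose from 1 to 3 (fasted; leave-one-out 1 to 3) and from 0 to 1 (WT refed; leave-one-out 0 to 1) with a summit in either liver, and those of JMJD1C-LKO liver were 0 under all alternatives run. Depth limits what the absence of a summit can show.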
